A study of Triticum aestivum with 21 samples.

Results

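The reference transcripts are the wheat genes against which other transcripts are scaled. They were found here as 13 probe sets of the 61290 on the GeneChip Wheat Genome Array. Of these, 11 are Affymetrix control probe sets whose IDs begin with AFFX-Ta_Ubiquitin (3 probe sets), AFFX-Ta-ef1a (3) or AFFX-Ta-gapdh (5). The other 2 are 1 probe set each of flat gene 1 and flat gene 2, which served as control genes in Q-PCR together with GAPdH. The study chose these 3 with geNorm on its Q-PCR values, having also assessed actin, EFA and cyclophilin. The 13 probe sets stand for 5 transcripts, and the question asked of them was which are expressed and steady over the 7 stages of anther development. The flat genes were picked by the study on these same arrays for their level and the small spread of their triplicates, so their steadiness here is not independent evidence.

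The samples were whole anthers of wild-type bread wheat, cultivar Chinese Spring, from plants kept in a glasshouse at 23 °C by day and 15 °C by night with 14 h of light. Before meiosis the anthers were called PM. The stages of meiosis itself were LP, which takes in leptotene, zygotene and pachytene, then DA and TT. DA runs from diplotene until the first anaphase, and TT from the first telophase until the second. After meiosis came tetrads (T), then immature pollen (IP), and lastly mature anthers (MAN). Each of the 7 had 3 arrays, 21 in all. Anthers of a stage were pooled into 1 RNA sample, which was amplified in 2 rounds, and the 3 arrays are technical replicates of that pool. Every SD, interval and p therefore measures the spread between arrays and not between plants, and the number of arrays limits the precision.

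Ubiquitin is a small protein that is attached to other proteins and marks many of them for the proteasome, and plants make it in part from polyubiquitin genes that encode head-to-tail repeats. Elongation factor 1 alpha (ef1a) carries aminoacyl-tRNA to the ribosome, and glyceraldehyde-3-phosphate dehydrogenase (gapdh) is an enzyme of glycolysis. All 3 are common references in Q-PCR because most cells need them. On the array each is covered by probe sets near the 3′ end (3), in the middle (M) and near the 5′ end (5), which serve to follow the length of the amplified RNA. The endings _s and _x mark probe sets with probes that also match other transcripts, and _a marks those that match several transcripts of 1 gene. No member has a gene symbol in the platform annotation, so the flat genes have no other name here.

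The level used throughout is the log2 of the RMA intensity, so that a difference of 1 is 2-fold. A probe set was called expressed where its mean of 3 arrays was above 5 in every stage, and steady where its 7 stage means spanned at most 1. The median level of an array was between 5.57 and 5.71. Cell types were followed with 9 marker probe sets. The series holds no tissue other than anthers, so these levels cannot test the identity of the samples. The 4 meiocyte markers ASY1, DMC1, MSH4 and RAD51C were all above 5 in PM (5.64 to 11.81 over all stages for DMC1). In MAN, ASY1 (6.22), DMC1 (5.64) and MSH4 (6.21) were still above 5. The starch synthase GBSS was above 5 in MAN alone (7.91).

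IP replicate 1 stood apart from the other arrays. Its 18S rRNA level was 8.55, against 13.19 and 13.78 on IP replicates 2 and 3, and its hybridization controls averaged 8.38, against 9.56 to 10.97 on the other arrays. Of 1256 bright probe sets that are not members (above 11 in every stage mean other than IP), 1168 were lower on it than on both other IP arrays, and over all 1256 the median difference from the mean of those arrays was -0.46. The bright members followed: Ubiquitin_3 lay 0.87 below the mean of the other IP arrays, Ubiquitin_M 0.69, flat gene 1 0.70 and flat gene 2 0.68. Ubiquitin_5, also bright, lay 0.34 below it, a smaller drop than that median. The members' differences at IP are therefore given with and without this array.

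By these rules 8 of the 13 members were expressed, against 54.5% of all 61228 probe sets fitted, and 6 were expressed and steady, against 28.1%. The 6 were Ubiquitin_3, Ubiquitin_M, ef1a-3, gapdh-M_x and both flat genes. Of these, ef1a-3 (lowest stage mean 5.28) and gapdh-M_x (5.99) would not count as expressed at a boundary of 6. Near the boundary a change can be understated, so their steadiness says less than that of the bright members. Ubiquitin_5 and gapdh-5 were expressed but spanned more than 1. The remaining 5 (ef1a-5, ef1a-M_s, gapdh-3, gapdh-5_x and gapdh-M) had at least 1 stage mean of 5 or below. gapdh-3 and gapdh-M were below 5 on each of the 21 arrays, with levels of 3.90 to 4.76 and of 3.19 to 3.89. The 3′ and middle positions of gapdh were thus read by 1 probe set above the boundary, gapdh-M_x. The plot of levels by array shows the 5 transcripts over the stages.

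**Figure D1:**
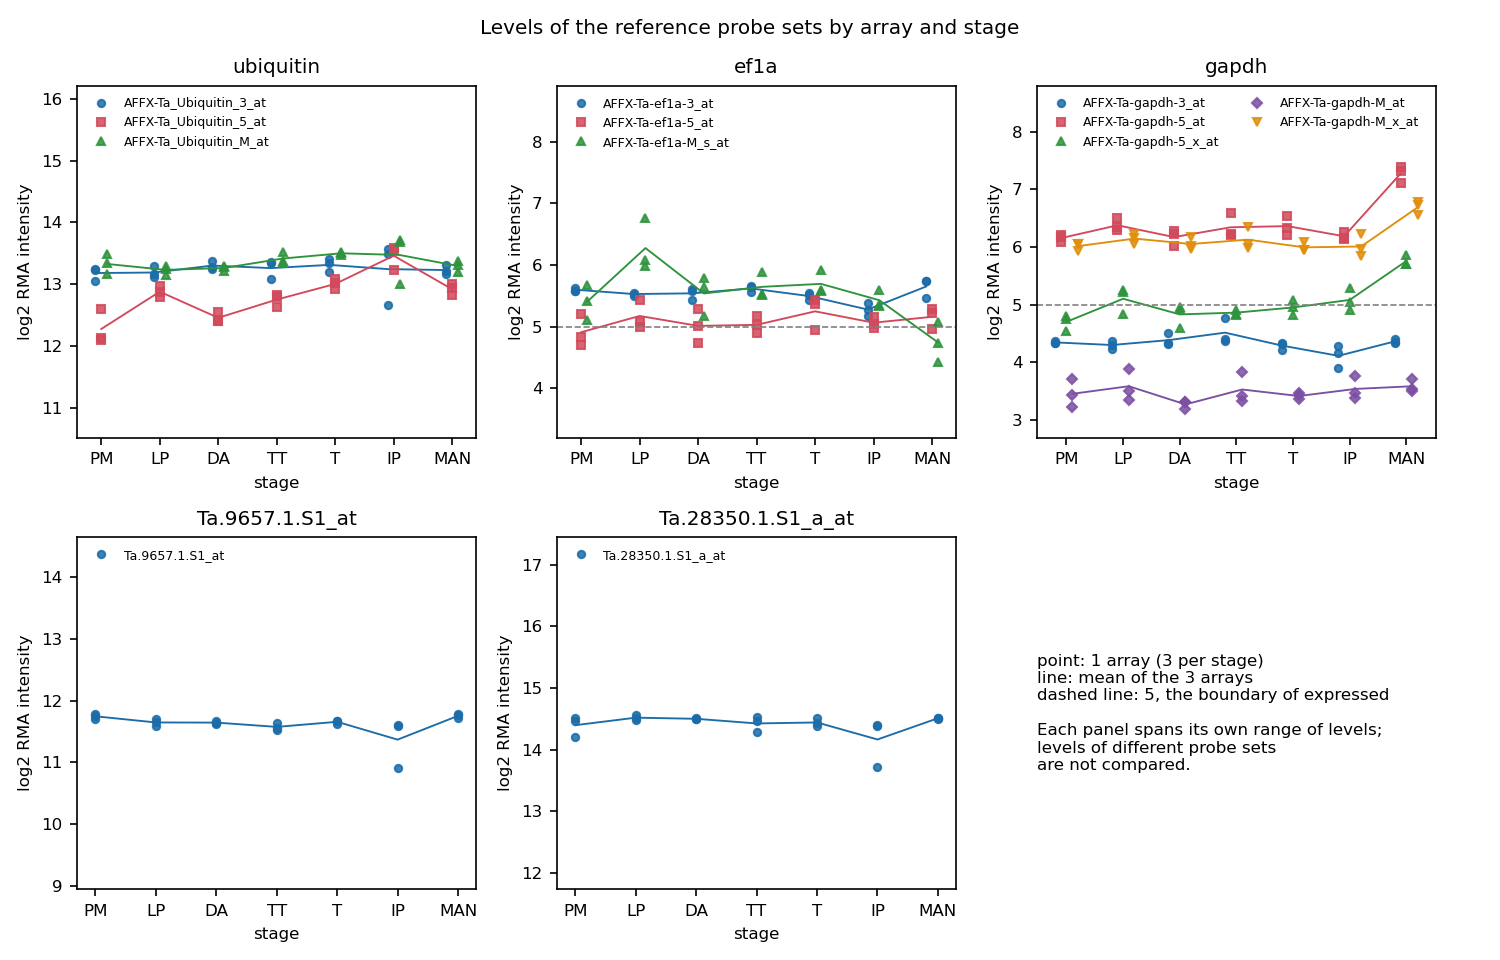
Log2 RMA intensity (y axis) of the 13 reference probe sets at the 7 stages (x axis), with a panel per transcript; points are arrays, 3 per stage, lines join the stage means, and the dashed line is the boundary of 5. Ubiquitin and both flat genes lie far above 5 on all 21 arrays with 1 low IP array each for Ubiquitin_3, Ubiquitin_M and the flat genes, and the gapdh 5′ probe sets and gapdh-M_x are highest in MAN.

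Ubiquitin was bright at all 3 positions. Ubiquitin_3 had stage means of 13.18 in PM, 13.19 in LP, 13.30 in DA, 13.26 in TT, 13.31 in T, 13.24 in IP and 13.23 in MAN. They spanned 0.13, or 1.10-fold, and only 0.102% of the probe sets expressed in every stage had a smaller range. The largest difference between stages, T minus PM, was 0.13 with a 95% interval of -0.19 to 0.45. This narrow range rests on IP replicate 1: the 3 IP arrays read 12.66, 13.49 and 13.58, and without the first of them the range was 0.35. Ubiquitin_M spanned 0.27, with its lowest mean in LP (13.23) and its highest in T (13.50), and 0.47 without IP replicate 1.

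Ubiquitin_5 behaved otherwise. It read 12.60, 12.10 and 12.12 in PM, 12.87, 12.79 and 12.97 in LP, 12.55, 12.40 and 12.41 in DA and 12.63, 12.80 and 12.82 in TT. The later arrays read 13.01, 13.08 and 12.92 in T, 13.23, 13.59 and 13.56 in IP and 13.00, 12.82 and 12.93 in MAN. PM was thus lowest and IP highest, with a range of 1.19 or 2.28-fold. The 3 arrays of each did not overlap those of the other, but these stages were picked as the extremes. Of all expressed probe sets, 59.5% had a smaller range.

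The 3 ef1a probe sets lay near the boundary of 5. The ef1a-3 level was between 5.43 and 5.66 on the 12 arrays of PM to TT, with a median of 5.58, between 5.43 and 5.55 in T, between 5.17 and 5.39 in IP and between 5.47 and 5.74 in MAN. It spanned 0.37 over the stage means, with IP lowest and MAN highest. ef1a-5 spanned 0.34, and 14 of its 21 arrays were above 5. ef1a-M_s, whose probes also match other transcripts, was the member with the widest range of all 13 at 1.53. It read 5.98, 6.07 and 6.77 in LP, against 5.68, 5.41 and 5.11 in PM, and 4.44, 4.73 and 5.07 in MAN.

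gapdh-5 was level up to IP and then high in MAN. Its 18 arrays from PM to IP read between 6.01 and 6.58, with a median of 6.23, and its MAN arrays read 7.11, 7.32 and 7.39. gapdh-M_x read 6.78, 6.73 and 6.56 in MAN, against 5.84 to 6.34 on the arrays from PM to IP. gapdh-5_x read 5.71, 5.70 and 5.86 in MAN, against 4.55 to 5.29. In each of these 3 probe sets every MAN array lay above every array of the 6 other stages. The share of all probe sets for which this holds was not counted. Against PM to TT alone the MAN arrays did not overlap, in either direction, for 47.5% of all probe sets. gapdh-3 was not set apart in MAN, with 4.36, 4.40 and 4.34 there and a median of 4.33 on the arrays from PM to IP.

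Flat gene 1 read between 11.52 and 11.79 on the 15 arrays from PM to T, 10.90, 11.59 and 11.61 in IP and 11.77, 11.72 and 11.77 in MAN. Flat gene 2 read between 14.21 and 14.57 from PM to T, 13.72, 14.38 and 14.40 in IP and 14.50, 14.51 and 14.52 in MAN. Their ranges over the stage means were 0.39 and 0.35, and 0.18 and 0.13 without IP replicate 1. For its additional Q-PCR controls the study required levels above 5 on all 21 arrays and a triplicate SD under 0.1. Here flat gene 1 met that SD limit in 6 of 7 stages, with 0.40 in IP. Flat gene 2 met it in 4 of 7, with 0.39 in IP, 0.164 in PM and 0.127 in TT. On the deposited values neither thus met the study's limit in every stage, and the reason was not tested. Of all probe sets, 40 were above 5 on each of the 21 arrays with every triplicate SD under 0.1, and 138 without IP replicate 1. None of the 13 members was among the 40, and 1 member, flat gene 1, was among the 138.

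**Figure D2:**
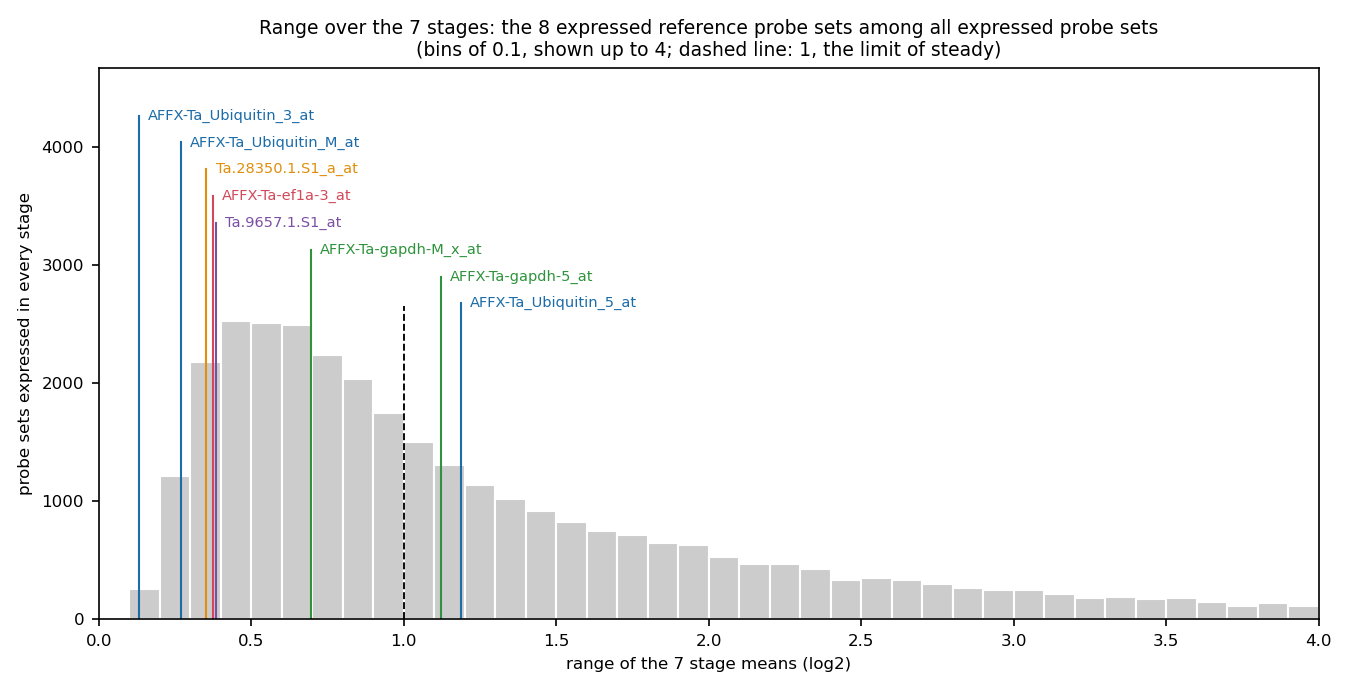
Range of the 7 stage means (x axis, log2) of all probe sets expressed in every stage (grey bars, y axis is their number in bins of 0.1, shown up to 4); coloured lines mark the 8 expressed members and the dashed line the limit of 1. Ubiquitin_3 at 0.13 stands at the low end, 6 members lie left of 1, and Ubiquitin_5 at 1.19 and gapdh-5 at 1.12 lie right of it.

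Stages were compared in a fit over all probe sets with limma, and an adjusted p (Benjamini-Hochberg over 61228 probe sets) under 0.05 was taken as a call. Over all 7 stages 6 of the 13 members were called, against 68.2% of all probe sets. The 6 were ef1a-3, ef1a-M_s, Ubiquitin_5, gapdh-5, gapdh-5_x and gapdh-M_x. The median range was 0.39 over the members and 0.64 over all probe sets. A member that was not called is not shown to be constant, and its interval gives what the arrays allow.

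Over the meiotic stages PM, LP, DA and TT, 2 of the 13 members were called, against 13.9% of all probe sets. They were Ubiquitin_5 (range 0.60, adjusted p = 0.00397, limma) and ef1a-M_s (range 0.87, adjusted p = 0.0103). Without LP replicate 3, on which ef1a-M_s read 6.77, only 1 of them was called. Both moved in the step into LP, where 5.93% of all probe sets were called: Ubiquitin_5 was higher in LP than in PM by 0.60 ± 0.13 (SE), and ef1a-M_s by 0.87 ± 0.19. In the step to DA, where 4.55% were called, ef1a-M_s fell by 0.74 ± 0.19 (adjusted p = 0.0266). No member was called in the steps from DA to TT (2.56% of all probe sets) and from TT to T (6.22%). For the other 11 members the range over PM to TT was between 0.09 (ef1a-3) and 0.40 (gapdh-5_x).

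In MAN 5 of the 13 members were called against PM to TT, taken as the mean of those 4 stages, where 69.3% of all probe sets were. Of the 5, 4 rose (41.4% of all rose) and 1 fell (27.9%). gapdh-5 had a mean of 7.27 in MAN and 6.26 in PM to TT, a rise of 1.02 ± 0.09 (SE) or 2.02-fold (adjusted p = 4.5e-10, limma). gapdh-5_x had 5.76 in MAN and 4.87 in PM to TT and rose by 0.88 ± 0.10, with the mean of PM to TT under the boundary of 5. gapdh-M_x had 6.69 and 6.08 and rose by 0.60 ± 0.09. Ubiquitin_5 had 12.92 and 12.59 and rose by 0.33 ± 0.10 (adjusted p = 0.00491), though its arrays overlapped between the groups. ef1a-M_s had 4.75 in MAN and 5.72 in PM to TT and fell by 0.97 ± 0.15 (adjusted p = 4.3e-06). For 4 of the 5, the exception being Ubiquitin_5, the arrays of the groups did not overlap, which was so for 47.5% of all probe sets. These directions hold on the deposited scale. On the scale of the 9 hybridization controls, whose mean was subtracted from each array and which averaged 10.75 to 10.97 in MAN, the median difference of all probe sets was -0.74. There 9 of the 13 members were called lower and 0 higher, against 69.1% of all probe sets called. On that scale gapdh-5 stood at 0.14, gapdh-5_x at 0.01, gapdh-M_x at -0.27 and Ubiquitin_5 at -0.55, and both flat genes were lower, at -0.78 and -0.83. The order of the members' differences is the same on both scales, since 1 value per array is subtracted from all of them.

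For the 8 members not called in MAN the differences lay between -0.02 and 0.13. The 95% intervals were -0.26 to 0.25 for Ubiquitin_3, -0.24 to 0.21 for Ubiquitin_M, -0.08 to 0.24 for ef1a-3, -0.11 to 0.31 for flat gene 1 and -0.17 to 0.27 for flat gene 2. On the deposited scale a 2-fold difference in either direction lay outside all 5 of these intervals. On the hybridization-control scale the same 5 were called lower in MAN, Ubiquitin_3 at -0.88, Ubiquitin_M at -0.89, ef1a-3 at -0.80 and the flat genes at the values above. The median difference was 0.10 over the members and 0.13 over all probe sets.

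Markers of cell types also moved in MAN. The summed level of the 4 meiocyte markers was between 7.76 and 7.97 on the MAN arrays and between 11.01 and 12.56 on the arrays of PM to TT. The sum of the 2 tapetum markers, raftin1a and raftin1b, was between 8.98 and 9.65 in MAN and between 12.56 and 14.14 in PM to TT, and that of the green tissue markers PsbP and FBP was between 6.68 and 7.18 in MAN and between 7.61 and 8.91 in PM to TT. Among the meiocyte markers DMC1 was at -5.26 and RAD51C at -0.90, and PsbP and FBP were at -1.51 and -1.41. GBSS rose, with 7.78 to 8.11 in MAN and 4.38 to 4.98 in PM to TT. The part of the changing cell types in the members' differences was not tested, and in whole anthers fewer cells of a type and less RNA per cell cannot be told apart.

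In IP 5 of the 13 members were called against PM to TT, where 31.4% of all probe sets were. 1 rose (12.6% of all rose) and 4 fell (18.8%). Ubiquitin_5 had a mean of 13.46 in IP and 12.59 in PM to TT, a rise of 0.87 ± 0.10 or 1.83-fold (adjusted p = 7.8e-08, limma), and 0.98 without IP replicate 1. Its arrays did not overlap between the groups, as was so for 15.9% of all probe sets. ef1a-3 fell by 0.29 ± 0.08, gapdh-3 by 0.27 ± 0.09, flat gene 1 by 0.28 ± 0.10 and flat gene 2 by 0.29 ± 0.11. Without IP replicate 1 none of these 4 falls was called: flat gene 1 was at -0.05 (adjusted p = 0.727), flat gene 2 at -0.07 (0.668), gapdh-3 at -0.17 (0.246) and ef1a-3 at -0.24 (0.0532). In their place Ubiquitin_3 (0.30, adjusted p = 0.021) and Ubiquitin_M (0.40, adjusted p = 0.00169) were called higher in IP. The members called were then the 3 ubiquitin probe sets, 3 of the 13, against 25.8% of all probe sets without that array. On the hybridization-control scale, where the controls of IP replicate 1 were low, the median of all probe sets in IP was 0.47. There the 4 falls turned to between 0.23 and 0.25 and only Ubiquitin_5 was called, against 17.1% of all probe sets. On the deposited scale the mean of the other 2 IP arrays was within 0.07 of the mean of PM to TT for both flat genes. The cell type markers moved in IP as well. The meiocyte sum was between 10.42 and 10.61 on the IP arrays and between 11.01 and 12.56 on those of PM to TT. Among its markers ASY1 was at -1.81, DMC1 at -1.26, MSH4 at -0.38 and RAD51C at -0.17. The RAD51C mean in IP (5.60) was above its means in DA (5.53) and TT (5.29), so the sum does not describe each marker. The tapetum sum was between 14.50 and 14.96 in IP and between 12.56 and 14.14 in PM to TT, and the green tissue sum was between 9.69 and 10.18 in IP and between 7.61 and 8.91 in PM to TT. None of these 3 sums overlapped between the groups, GBSS did (4.39 to 4.79 in IP, 4.38 to 4.98 in PM to TT), and their part in the members' differences in IP was not tested.

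**Figure D3:**
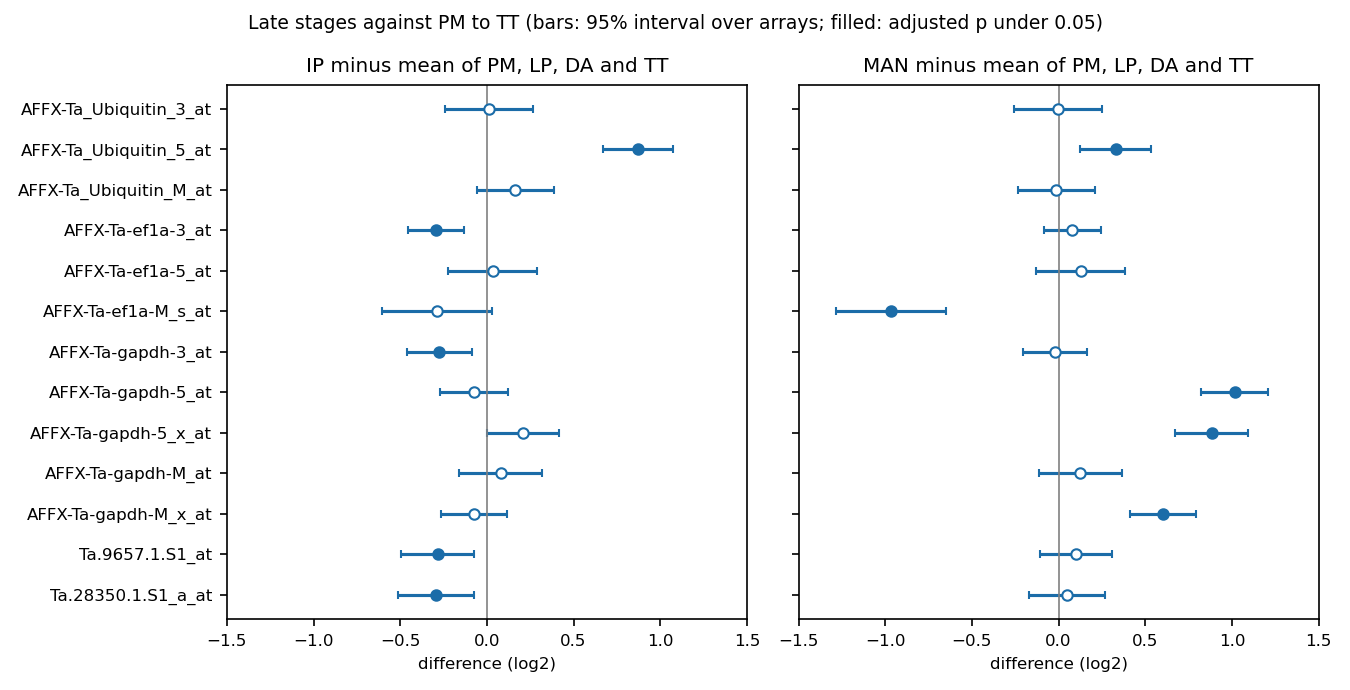
Difference (x axis, log2) of IP (left) and MAN (right) from PM to TT for each of the 13 members (y axis), with 95% intervals over arrays; filled points have an adjusted p under 0.05. The gapdh 5′ probe sets and gapdh-M_x lie right of 0 in MAN, at 1.02, 0.88 and 0.60, Ubiquitin_5 lies right of 0 in both, and the 4 small falls in IP include IP replicate 1. On the hybridization-control scale gapdh-M_x (-0.27) and Ubiquitin_5 (-0.55) lie left of 0 in MAN.

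In the step from T to IP 1 member was called, against 17.3% of all probe sets, with Ubiquitin_5 higher in IP by 0.46 ± 0.13 (0.57 without IP replicate 1). On the hybridization-control scale 0 members were called in this step, against 3.23% of all probe sets. The step from IP to MAN held most of the members' calls, 8 of 13, against 64.3% of all probe sets. gapdh-5 rose by 1.09 ± 0.12, gapdh-M_x by 0.68 ± 0.12 and gapdh-5_x by 0.68 ± 0.13, and ef1a-3 by 0.37 ± 0.10. Ubiquitin_5 fell by 0.54 ± 0.13 and ef1a-M_s by 0.68 ± 0.19. Both flat genes were called higher in MAN than in IP, by 0.39 and 0.34, and without IP replicate 1 neither was (0.15 and 0.12). The other 6 were also called without that array, at 1.07 for gapdh-5, 0.79 for gapdh-M_x, 0.59 for gapdh-5_x, 0.32 for ef1a-3, -0.66 for Ubiquitin_5 and -0.73 for ef1a-M_s. Without it Ubiquitin_3 (-0.30) and Ubiquitin_M (-0.41) were also called lower in MAN than in IP. These directions, too, hold on the deposited scale, where the median of all probe sets was 0.17. On the hybridization-control scale that median was -1.23, and 12 members were called lower in MAN than in IP and 0 higher, against 88.5% of all probe sets called.

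The probe sets of 1 transcript thus differed in how they moved, and this was measured on each array as the 3′ level minus the 5′ level (the mean of gapdh-5 and gapdh-5_x for gapdh). The values of such a difference have no meaning across transcripts, only across stages. For ubiquitin it was -0.57, -0.10 and 0.02 in IP, and between 0.24 and 1.15 on the 12 arrays of PM to TT. The means were -0.22 in IP and 0.64 in PM to TT, lower in IP by 0.86 (exact permutation test over arrays, two-sided, p = 0.0044, adjusted over 6 tests 0.0132). In MAN the mean was 0.31, lower than in PM to TT by 0.33 (adjusted exact p = 0.105). Already within meiosis the ubiquitin difference was 0.31 in LP, against 0.91 in PM, 0.85 in DA and 0.51 in TT.

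For gapdh the 3′ minus 5′ difference was -2.05, -2.12 and -2.29 in MAN, and between -1.55 and -0.98 on the arrays of PM to TT, with no overlap. The means were -2.15 in MAN, -1.52 in IP and -1.18 in PM to TT. The 3′ term, gapdh-3, was below 5 on all 21 arrays and gapdh-5_x averaged 4.87 in PM to TT, so this difference restates the rise of the 5′ probe sets in MAN and does not compare both ends above the boundary. For ef1a the differences from PM to TT were -0.33 in IP (adjusted exact p = 0.0923) and -0.05 in MAN (adjusted exact p = 0.756). The smallest p that 3 arrays against 12 can give is 0.0044. With 1 IP array left out it is 0.022, and the adjusted exact p of ubiquitin in IP was then 0.0659, whichever IP array was left out. The smaller group limits that p, so it does not show a weaker difference. Without IP replicate 1 the difference was -0.68, and the other IP arrays (-0.10 and 0.02) lay below all 12 arrays of PM to TT (lowest 0.24).

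**Figure D4:**
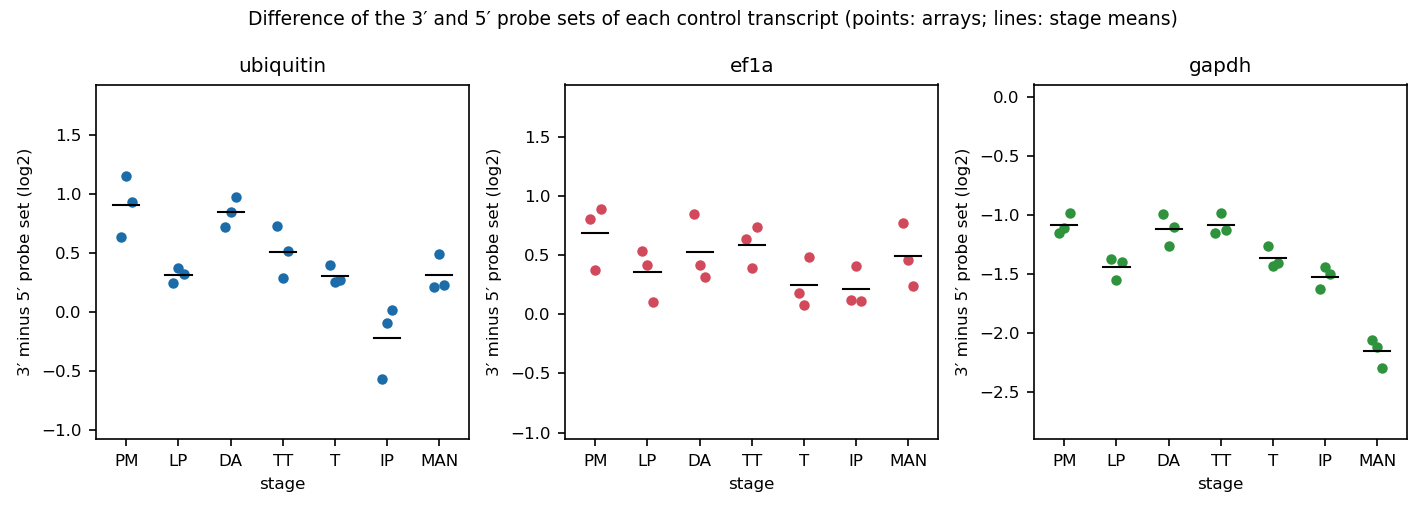
Level of the 3′ probe set minus that of the 5′ probe sets of ubiquitin, ef1a and gapdh (y axis, log2) at the 7 stages (x axis); points are arrays, 3 per stage, and short lines are stage means. Ubiquitin is lowest in IP at a mean of -0.22, gapdh, whose 3′ probe set is below the boundary of 5, is lowest in MAN at -2.15, and the ef1a stages overlap.

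The steadiness of the references relative to each other was described by pairwise variation, the SD over the 7 stage means of the difference of 2 transcripts, averaged over the 4 other transcripts, as geNorm does for its M value. The profile of a transcript was the median of its expressed probe sets, which for gapdh were gapdh-5 and gapdh-M_x. The study's own geNorm ranking used Q-PCR values and kept GAPdH as a control. How its Q-PCR product relates to these probe sets was not examined. The mean pairwise variation was 0.156 for ef1a, 0.160 for each flat gene, 0.241 for ubiquitin and 0.303 for gapdh. Between ef1a and flat gene 1 the SD was 0.068, between ef1a and flat gene 2 it was 0.076, and between the flat genes it was 0.077. ef1a is here 1 probe set, ef1a-3, which lay near the boundary of 5. The rule left out ef1a-M_s (range 1.53), whose MAN mean was 4.75, and ef1a-5, whose PM mean was 4.91. The low value of ef1a thus holds for ef1a-3 alone. ef1a-3 and both flat genes share a low value in IP. Without IP replicate 1 ef1a was no longer lowest, at 0.179, against 0.165 for flat gene 1 and 0.164 for flat gene 2, with ubiquitin at 0.258 and gapdh at 0.317. Without IP and MAN all 5 transcripts lay between 0.0879 and 0.105, and without MAN alone gapdh was at 0.127 and ubiquitin at 0.190. The value of gapdh thus depended mostly on MAN. Those of the other 4 transcripts fell without MAN as well, and each of them includes the pair with gapdh. Ubiquitin was then the highest, and it fell to 0.105 without IP and MAN.

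The choice of reference changed the count of probe sets called in MAN against PM to TT. With each array scaled to gapdh, 4413 were higher and 49108 lower in MAN, so that 8.25% of the calls were rises, and the median difference was -0.68. Scaled to ubiquitin, 21130 were higher and 15776 lower (57.3% rises). Scaled to ef1a, 19233 were higher and 17906 lower (51.8%). Scaled to flat gene 1, 15904 were higher and 17244 lower (48.0%), and scaled to flat gene 2, 17167 and 16301 (51.3%). As deposited, 25341 were higher and 17061 lower (59.8%). With gapdh-3 alone as the gapdh profile, in place of gapdh-5 and gapdh-M_x, the split was 23451 higher and 15816 lower (59.7%), but gapdh-3 was below 5 on all 21 arrays and is no reading of gapdh above the boundary. IP replicate 1 is not in this contrast but is in the fit that gives its spread. Without it the split for flat gene 1 was 20096 higher and 19389 lower (50.9%), and the median SE was 0.099 in place of 0.135. For flat gene 2 it was then 21022 and 17659 (54.3%), and for ubiquitin 24413 and 16644 (59.5%). For ef1a it was 19862 and 18226 (52.1%), and for gapdh 4510 and 49440 (8.36%). The counts thus depend on that array as well as on the reference.

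**Figure D5:**
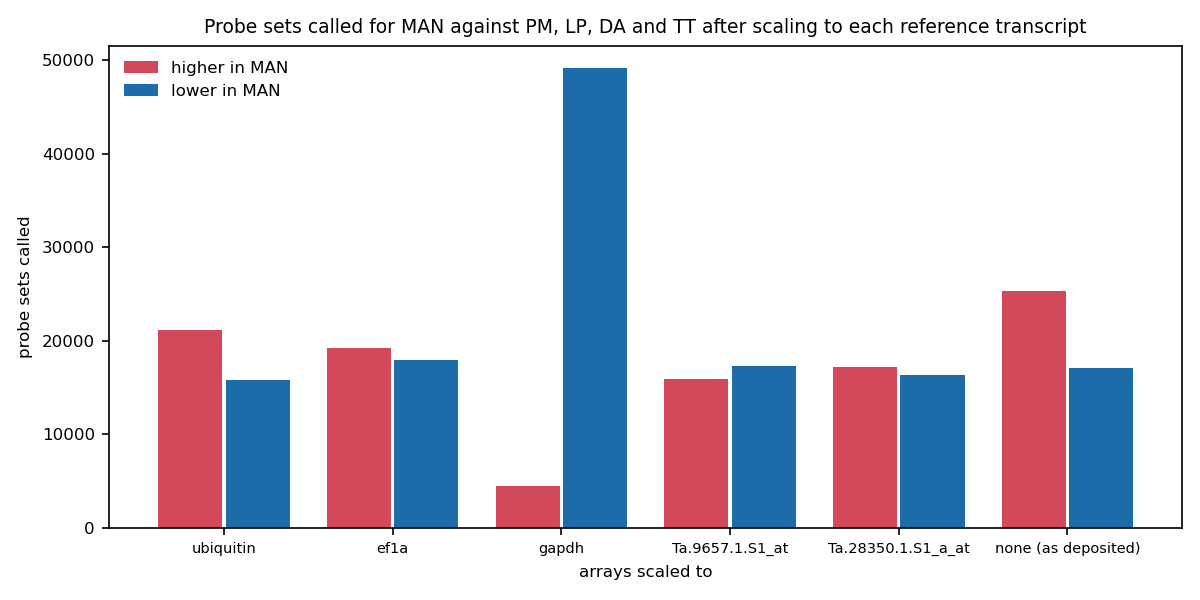
Number of probe sets (y axis) called higher (red) and lower (blue) in MAN than in PM, LP, DA and TT, with the arrays scaled to each of the 5 reference transcripts or to none (x axis). Scaling to gapdh gives 4413 higher and 49108 lower, and the other 4 references give between 15904 and 21130 higher.

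Annotated probe sets of the ubiquitin system, of translation factors and of glycolysis were looked up beside the members. The 3 probe sets of UBC1/UBC2 (LOC543219), a ubiquitin-conjugating enzyme that hands ubiquitin on to its targets, were all expressed and steady. None was called in MAN, with a median difference of 0.10, and the share of all probe sets called there was 69.3%. In IP, where 12.6% of all rose, TaAffx.53697.1.S1_x_at rose by 0.66, Ta.2711.1.S1_x_at was at -0.25 and TaAffx.51048.1.S1_at at -0.12 (neither called), with a median of -0.12. All 5 probe sets of translation factors fell in MAN, where 27.9% of all did, by a median of 1.35. Ta.659.2.S1_x_at and Ta.659.3.S1_x_at of TEF1 (LOC543386), a translation elongation factor, fell by 1.38 ± 0.09 and 1.35 ± 0.11 (SE), where ef1a-3 stood at 0.08 ± 0.08. Both TEF1 probe sets were bright, with means of 14.57 and 13.90 in LP and of 13.09 and 12.37 in MAN. They were not steady, with ranges of 1.48 and 1.53 over the stages. The steadiness of ef1a-3, which lay near the boundary of 5, thus did not extend to these elongation factor probe sets. The initiation factor probe sets Ta.165.1.S1_at (eIF-2-beta) and Ta.14707.1.S1_at (eIF-4E-1) fell by 2.04 and 0.66. Of 3 glycolysis probe sets 2 fell in MAN, Ta.2307.1.S1_at of the phosphoglycerate kinase Pgk-1 by 1.21 and Ta.4637.1.A1_at of the phosphofructokinase PFK, which was not expressed, by 0.26. GAPN, a non-phosphorylating glyceraldehyde-3-phosphate dehydrogenase that uses NADP, was at 0.19 ± 0.11 in MAN (not called) and rose by 1.37 in IP.

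Of 17 probe sets of other usual references (tubulins, ribosomal proteins RPL9 and RPS29 and the actin controls), 15 were expressed and 1 was also steady, against 6 of the 13 members. In MAN 4 rose, against 41.4% of all probe sets, and 12 fell, against 27.9%, with a median of -1.43. On the hybridization-control scale the calls over the whole table were 3098 rises and 39199 falls. The 4 that rose were the actin control probe sets, by 3.81 to 8.97, and RPL9 (Ta.14183.1.S1_at) fell by 5.11. The 14 wheat control probe sets that are not members (actin, sucrose synthase, CYP86 and glucose-6-phosphate dehydrogenase among them) had a median range of 5.59 over the stages, and 2 of the 14 were expressed and steady.

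For each transcript the nearest profiles were sought among 33357 other probe sets expressed in every stage, by the root mean square (RMS) difference of the centred stage means. The nearest to gapdh were TaAffx.79058.1.S1_at (0.03) and TaAffx.11110.1.S1_x_at (0.04), with 6.01 and 7.86 in MAN against 5.29 and 7.11 at most in the 6 other stages. They were also the nearest without IP replicate 1. The nearest to ef1a were TaAffx.83492.1.S1_at (0.02) and Ta.11056.1.A1_at (0.03), which ranked 13 and 3 without that array. Nearest to ubiquitin were TaAffx.57715.1.S1_at and TaAffx.12310.1.S1_at, to flat gene 1 TaAffx.111278.1.S1_at and TaAffx.12111.1.A1_at, and to flat gene 2 TaAffx.23192.1.S1_at and TaAffx.130061.1.S1_x_at. These 6 ranked between 63 and 1020 without IP replicate 1, so their place depends on that array. Of probe sets with a gene symbol, the nearest to flat gene 1 was Ta.2711.1.S1_x_at of UBC1/UBC2 (RMS difference 0.05). For ubiquitin it was Ta.2148.1.S1_x_at (LOC543383), for ef1a Ta.2291.1.S1_x_at (LOC543336), for gapdh TaAffx.30054.1.S1_at (LOC780574) and for flat gene 2 Ta.1409.1.S1_x_at (LOC543450), which the annotation names by locus only.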

How the data were processed

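RNA of whole wheat anthers at 7 stages was measured on 21 arrays, 3 per stage, and all 21 columns of the table were used. The deposited values are intensities that the authors obtained by RMA, a method that corrects for background, normalizes the arrays to each other and gives 1 value per probe set. They proved to be on a linear scale, where log2 values had been planned for, and log2 was taken here. The authors later dropped rogue and duplicate probe sets, but the table does not mark these, and they were kept. The 62 spiked controls were left out by ID, and 61228 probe sets were fitted, among them 24 spiked controls with IDs that begin with AFFX-Tae, whose omission was added as an alternative after the data were seen and changed no count of members called.

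The model had a mean per stage, was fitted to the 21 arrays together with limma 3.58.1 under R 4.3.3, and moderated the variances by empirical Bayes (residual degrees of freedom 14, prior 10.58), with Benjamini-Hochberg adjustment over all probe sets per contrast, and an adjusted p under 0.05. The fit was tested on simulated data. Differences of 3′ and 5′ probe sets were tested by exact permutation (scipy 1.17.1; also Python 3.11.15, numpy 2.4.6, pandas 2.3.3 and matplotlib 3.10.9). The members and lists were chosen with earlier results of these data known. By rule, all members, the 2 nearest profiles and the nearest with a symbol, and, of each gene list, the called probe sets that changed most in MAN (at most 4) were named. List names were matched to the 1273 probe sets with 1 symbol after the symbols were seen, and no member is among them. Flat gene 1 is probe set Ta.9657.1.S1_at; the ID of flat gene 2 is Ta.28350.1.S1_a_at. The genome and sequence of the probes were not used here. Alternatives were the methods' t-test, a replicate block, array weights, median centring, scaling to hybridization controls, a 2-fold minimum, filters on level, other boundaries, the 3′ probe sets only, and each array left out in turn.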

Additional observations from a re-analysis of the deposited data

How the results depend on the processing

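The counts of members called (6 over all 7 stages, 2 over PM to TT, 5 in MAN, 5 in IP, 12 of 78 member steps) stayed within 1.5 times under array weights, median centring, a filter on level and all rows of the table. A minimum of 2-fold gave 0 over PM to TT, 1 in MAN, 0 in IP and 1 of the steps. The methods' t-test gave 0 over PM to TT, 2 in IP and 4 of the steps, and in MAN it did not call Ubiquitin_5, nor did median centring (0.21). Scaling to the hybridization controls gave 0 over PM to TT, 9 in MAN (against 69.1% of all probe sets) and 1 in IP (against 17.1%), and 2 expressed and steady members in place of 6. It reversed in MAN Ubiquitin_5 (-0.55), ef1a-3 (-0.80), ef1a-5 (-0.75), gapdh-M (-0.75), gapdh-M_x (-0.27), flat gene 1 (-0.78) and flat gene 2 (-0.83), and in IP ef1a-3 (0.23), gapdh-3 (0.25), flat gene 1 (0.24) and flat gene 2 (0.23). These shifts follow from the level of those controls, high in MAN and low on IP replicate 1. Same-numbered arrays of different stages did not deviate together (r between -0.39 and 0.39, above 0.1 in 11 of 63 pairs), so the numbers do not pair them. With the replicate block 6, 2, 5, 5 and 13 members or steps were called.

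With each array left out in turn, the calls numbered 5 to 7 over all stages, 1 to 2 over PM to TT (1 without LP replicate 3), 5 in MAN, 3 to 5 in IP (3 without IP replicate 1) and 10 to 14 of the steps, and the expressed and steady members 6 to 7 (7 without PM replicate 3). The 3′ minus 5′ difference from PM to TT ranged for ubiquitin between -0.98 and -0.68 in IP and between -0.42 and -0.28 in MAN, for ef1a between -0.42 and -0.28 and between -0.19 and 0.08, and for gapdh between -0.38 and -0.29 and between -1.02 and -0.90. The adjusted p for IP was over 0.05 without any 1 IP array for ubiquitin (0.0659). It was 0.033 for ubiquitin in MAN without MAN replicate 2 and for ef1a in IP without LP replicate 3. Without gapdh-5_x the gapdh difference in IP was -0.20. Pairwise variation ranged between 0.234 and 0.258 for ubiquitin, 0.151 and 0.179 (without IP replicate 1) for ef1a, 0.296 and 0.317 for gapdh, 0.149 and 0.174 for flat gene 1, and 0.154 and 0.168 for flat gene 2. Without MAN it was 0.190, 0.120, 0.127, 0.128 and 0.120 in that order, and without IP and MAN 0.105, 0.0932, 0.101, 0.105 and 0.0879. Calls after scaling without IP replicate 1, an alternative added after the data were seen, numbered 41057 for ubiquitin, 38088 for ef1a, 53950 for gapdh, 39485 for flat gene 1 and 38681 for flat gene 2.

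The arrays give no detection call, so 5 is a boundary and not a background level, and differences of ef1a and gapdh probe sets near it can understate a change. Each stage is 1 pool, so the spread between plants is unknown.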
